A study of Mus musculus with 6 samples.

Results

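The genes of antigen presentation by the major histocompatibility complex (MHC) were followed in hematopoietic stem cells (HSCs) of the mouse fetal liver after loss of Dpy30. The members were taken by name: 5 genes of the class I pathway (B2m, H2-K1, H2-D1, Tapbp and Nlrc5) and 5 of the class II pathway (H2-Aa, H2-Ab1, H2-Eb1, Cd74 and Ciita). All 10 were among the 38926 genes counted, and 6 of them, the 5 of class I and Cd74, were among the 13646 genes with enough counts to be tested. RNA sequencing covered 3 control samples (genotype Vav-Cre; Dpy30F/+) and 3 knockout samples (Vav-Cre; Dpy30F/-), all from embryonic day 14.5, with 1 sample of each genotype from each of 3 litters. F is the floxed allele and the minus sign the null allele, and every sample, control or knockout, carried the Vav-Cre transgene. Controls are therefore heterozygous where Cre has acted. Vav-Cre drives the recombinase from Vav regulatory elements in blood-forming cells, and cells that escape deletion stay in the sorted sample. The labels name neither strain nor the number of embryos per sample, so p-values here measure the spread between these samples. Values listed for a genotype are in the order of litters 1, 2 and 3.

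Class I molecules sit on nearly all nucleated cells and show peptides from inside the cell to CD8 T cells. They consist of a heavy chain, encoded in mice by H2-K1, H2-D1 and others, and the light chain beta-2 microglobulin, encoded by B2m. Tapasin, the Tapbp product, bridges empty class I molecules to the TAP peptide transporter. Class II molecules show peptides from endosomes to CD4 T cells and belong to dendritic cells, macrophages, B cells and thymic epithelium. H2-Aa, H2-Ab1 and H2-Eb1 encode class II chains, and Cd74 encodes the invariant chain that guards their groove. Nlrc5 and Ciita encode the related coactivators of class I and class II genes. Neither coactivator binds DNA itself. Both join a complex of RFX, CREB-family and NF-Y factors on a short promoter module whose X2 box resembles TGACG and whose Y box is the inverted CCAAT element, ATTGG. Dpy30 belongs to the shared core of the SET1/MLL enzymes, which place methyl groups on lysine 4 of histone H3 at promoters.

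The 200 bases before the start site are shown for 5 members, because the class I genes were expressed here and the class II genes were at or near 0 although promoters of both classes carry parts of this module. Capitals mark every match on either strand to CCAAT, to TGACG and to GAAANNGAAA, a form of the element bound by interferon regulatory factors. Different motifs did not overlap in these windows, but TGACG and its complement share bases in H2-Aa. Sequences are from RefSeq on GRCm38.p6, read 5′ to 3′ on the gene's strand. The H2-D1 window, and that of Tapbp used below, lie inside the gene spans given later from GENCODE M21, whose start sites differ. H2-K1 has a second start site, not shown, whose window also holds CCAAT. The windows lie at chr2:122147487-122147686 (B2m, plus strand), chr17:34000348-34000547 (H2-K1, minus), chr17:35262894-35263093 (H2-D1, plus), chr17:34287824-34288023 (H2-Aa, minus) and chr17:34305667-34305866 (H2-Eb1, plus).
B2m: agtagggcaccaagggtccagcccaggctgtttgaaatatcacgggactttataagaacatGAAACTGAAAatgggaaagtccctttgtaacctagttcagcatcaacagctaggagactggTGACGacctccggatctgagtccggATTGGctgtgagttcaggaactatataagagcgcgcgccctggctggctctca
H2-K1: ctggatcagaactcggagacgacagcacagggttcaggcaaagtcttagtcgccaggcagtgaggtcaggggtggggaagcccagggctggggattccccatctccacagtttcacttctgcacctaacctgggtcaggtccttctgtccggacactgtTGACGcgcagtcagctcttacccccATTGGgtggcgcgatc
H2-D1: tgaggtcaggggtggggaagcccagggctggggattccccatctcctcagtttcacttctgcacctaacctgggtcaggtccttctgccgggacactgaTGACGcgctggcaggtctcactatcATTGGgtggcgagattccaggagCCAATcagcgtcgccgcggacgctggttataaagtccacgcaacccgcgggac
H2-Aa: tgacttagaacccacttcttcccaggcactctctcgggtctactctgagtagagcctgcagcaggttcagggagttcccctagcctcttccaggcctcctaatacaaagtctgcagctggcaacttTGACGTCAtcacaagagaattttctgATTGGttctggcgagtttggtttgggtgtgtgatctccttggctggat
H2-Eb1: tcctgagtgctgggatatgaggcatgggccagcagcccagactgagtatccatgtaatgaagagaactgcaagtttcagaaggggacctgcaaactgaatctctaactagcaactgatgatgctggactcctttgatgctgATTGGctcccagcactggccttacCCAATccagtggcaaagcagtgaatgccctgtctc

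In B2m, H2-K1 and H2-D1 the first letter of TGACG stood 25 bases before that of ATTGG, and in H2-Aa 26 bases before it. H2-Eb1 held ATTGG but no TGACG, and B2m alone of the 5 held GAAANNGAAA. Other forms of the element bound by interferon regulatory factors were not searched, so the other windows may still hold one. Of 32851 promoter windows of 200 bases in the same table, 29.3% held CCAAT, 15.7% held TGACG and 2.27% held GAAANNGAAA, on either strand. TGACG followed by ATTGG with first letters 24 to 27 bases apart, a range set after the spacing in the members was seen, was in 67 of them (0.204%). Among 57 antigen presentation genes with a promoter in the table, 6 held it, namely B2m, H2-K1, H2-D1, H2-Aa, H2-M3 and H2-Q7. A match describes these letters and not a bound site. Promoters of 6 members were used, Tapbp being the sixth, and its window held ATTGG but no TGACG. Promoters on chromosome 18, where Cd74 lies, were left out for the members and the 57 genes but kept among the 32851.

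Class I and class II genes were far apart in these cells in both genotypes. The 5 class I members took 31911 counts in the 3 controls and 54221 in the 3 knockouts, and the 5 class II members 115 and 7. The class II members thus made up 0.131% to 0.794% of the counts of the 10 genes in the controls and 0% to 0.0376% in the knockouts. Between 31897737 and 43394700 counts were assigned to genes per sample, of which 49.2% to 67.7% came from mitochondrially encoded genes.

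**Figure D1:**
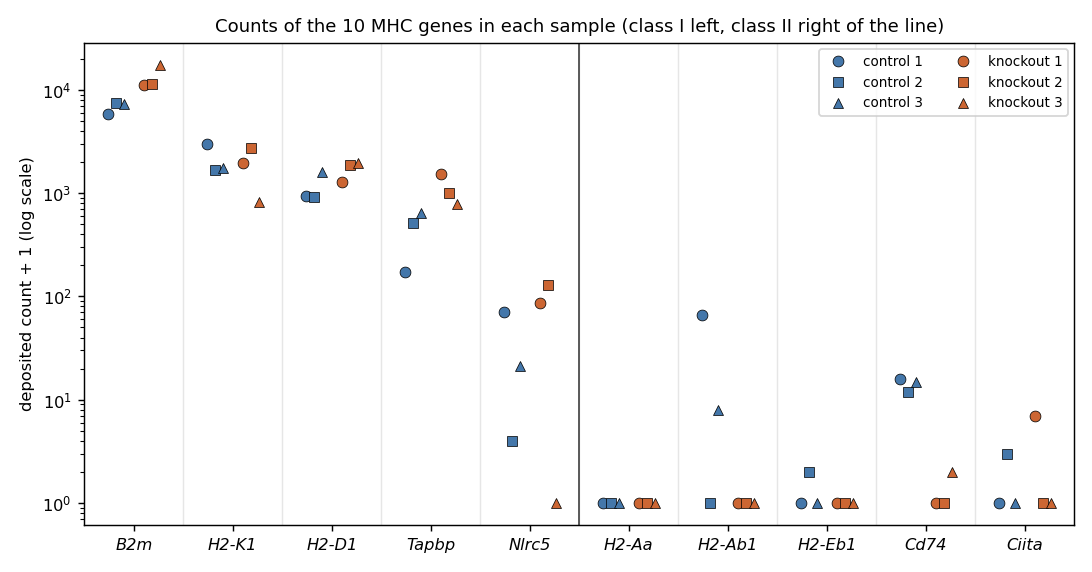
Deposited counts plus 1 (log scale) of each member in each sample, with controls in blue and knockouts in orange, and the litter given by the symbol. B2m lies between 5801 and 17542 counts with all knockouts above all controls, and H2-Aa is at 0 counts in all 6 samples.

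The labels and the sort were checked on genes outside the list. Dpy30 had 712, 904 and 1395 counts across the controls and 315, 216 and 478 across the knockouts. In CPM (counts scaled to a library of 1000000 by trimmed mean of M values, TMM), its mean in the knockouts was 34.2% of that in the controls. Whole-gene counts cannot tell reads of the floxed exons from other Dpy30 reads. All 12 HSC markers were detected in both genotypes, with a summed level of 665 to 712 CPM in the controls. Knockout 3 stood apart with 287 CPM, against 857 and 983 CPM in knockouts 1 and 2. Knockout 2 stood apart in endothelial markers, with 184 CPM against 1176 to 1852 CPM in the other samples. Erythroid and macrophage markers were present throughout (678 to 1982 and 275 to 1225 CPM). In bulk samples such as these, fewer cells of a type and less RNA per cell cannot be told apart.

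B2m was the most abundant member and was higher in every knockout. Its level was 200.3, 201 and 165 CPM across the controls and 279.6, 314 and 501 CPM across the knockouts. The groups did not overlap, and knockout 3 stood well above the other knockouts. The means were 189 ± 20.9 CPM for the controls and 365 ± 119 CPM for the knockouts (SD over 3 samples per genotype), a ratio of 1.93. The fitted log2 fold change was 0.95 (SE 0.264). Its edgeR quasi-likelihood p was 0.00687 before adjustment and 0.644 after Benjamini-Hochberg adjustment over all 13646 genes, so B2m did not pass the threshold of 0.05. An exact permutation test of the 3 against 3 CPM values gave p = 0.1 (two-sided), the smallest it can give. Within litters 1 to 3 the log2 CPM difference was 0.48, 0.64 and 1.61. Without knockout 3 the log2 fold change was 0.66. B2m lies on chromosome 2 (122147686 to 122153083, plus strand, GRCm38), and no 50-base stretch of its transcript occurs in a transcript of another GENCODE M21 gene.

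Tapbp, the tapasin gene, had the highest ratio between genotypes among the class I members. It was at 5.97, 13.6 and 14.4 CPM across the controls and at 38.3, 27.5 and 22.6 CPM across the knockouts. The groups did not overlap, but the order of the litters differed from that of B2m, with the highest knockout and the lowest control both in litter 1. The means were 11.3 ± 4.65 and 29.5 ± 8.06 CPM (SD over n = 3 per genotype), with a log2 fold change of 1.38 (SE 0.476; edgeR adjusted p = 0.721). The litter differences were 2.67, 1.01 and 0.65. Tapbp (chromosome 17, 33915899 to 33929292, plus strand) shares 1053 of its 3628 annotated exon bases with Zbtb22 and Gm19412. Reads there cannot be given to Tapbp alone, and 21.03% of the 50-base stretches of its main transcript occur in transcripts of other genes.

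The heavy chain genes showed no such separation of the genotypes. H2-K1 (chromosome 17, 33996017 to 34000347, minus strand) was at 104, 45.2 and 40.1 CPM across the controls and at 49.4, 75.3 and 23.4 CPM across the knockouts. The groups overlapped, with knockout 3 lowest and control 1 highest. Fitted over all samples, the log2 fold change was -0.35 (SE 0.513; adjusted p = 0.940 in edgeR), and it turned to 0.21 without control 1. H2-D1 (chromosome 17, 35262730 to 35267499, plus strand) was at 32.6, 24.6 and 35.9 CPM across the controls and at 32.4, 52.1 and 56.3 CPM across the knockouts. Knockout 1 fell within the control range while the other knockouts were above it (log2 fold change 0.60, SE 0.334; edgeR adjusted p = 0.808). Both genes have near copies in the MHC. Of the 50-base stretches of the main transcript, 8.79% in H2-K1 and 14.3% in H2-D1 occur in transcripts of other genes, among them each other and H2-Q7. Reads with more than 1 alignment, 13.4% to 18.3% of all reads per sample, were not given to genes, so the counts of both are uncertain.

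Nlrc5, the coactivator gene of class I, was low and scattered. It had 70, 3 and 20 counts across the controls and 85, 128 and 0 across the knockouts, or 0.984 ± 1.25 and 1.89 ± 1.78 CPM (SD over n = 3 per genotype). Each genotype held a sample near 0, and the ranges overlapped (chromosome 8, 94434356 to 94527272; log2 fold change 0.94, SE 1.89; edgeR adjusted p = 0.964). With litter as a block, a pairing the labels give, the value was -0.077. In knockout 3, which had 0 Nlrc5 counts, B2m was at its highest and H2-K1 at its lowest.

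No member passed the adjusted threshold, and no gene of all those tested did (0%). At an unadjusted edgeR p under 0.05, 888 of all genes passed (6.51%), 4.26% higher and 2.24% lower in the knockout. Of the 5 class I members 2 did, both higher, B2m and Tapbp (B2m alone without control 1, and B2m and H2-D1 without knockout 1). B2m and Tapbp had every knockout above every control, as 6.39% of all tested genes had. The class I members had a median log2 fold change of 0.94, beside 0.01 over all tested genes. That median is the Nlrc5 value itself (SE 1.89). It was 0.57 with the litter block, 0.45 without control 2 and 0.51 without knockout 2. DESeq2, run as another test, called 138 genes (1.03% of those it adjusted) and none of the members.

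**Figure D2:**
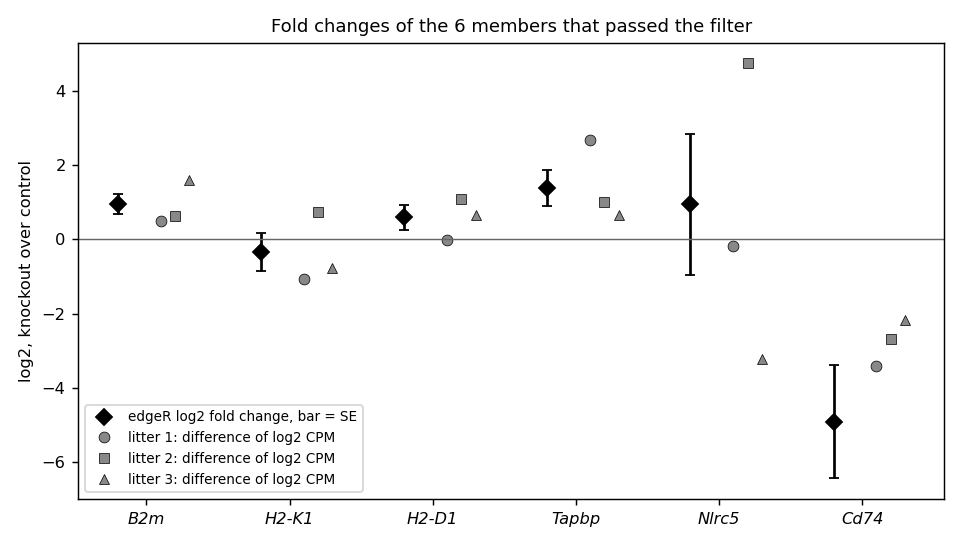
Log2 ratio of knockout to control for the 6 tested members: black diamonds are edgeR log2 fold changes with SE bars, and grey symbols the difference of log2 CPM within each litter. All 3 litters lie above 0 for B2m and Tapbp and below 0 for Cd74, while the litters disagree in sign for H2-K1, H2-D1 and Nlrc5.

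Levels of different genes were compared per kilobase of the main annotated transcript. In controls B2m stood at 219 ± 24.3 CPM per kilobase, H2-K1 at 38.9 ± 21.9, H2-D1 at 14.8 ± 2.77 and Tapbp at 3.91 ± 1.60. In knockouts the order was the same, with 424 ± 139 for B2m, 30.5 ± 16.0 for H2-K1, 22.3 ± 6.08 for H2-D1 and 10.2 ± 2.78 for Tapbp (SD over n = 3 per genotype). H2-K1 and H2-D1 in the knockouts did not differ beyond their spread. Nlrc5 followed at 0.13 ± 0.166 in controls and 0.249 ± 0.235 in knockouts. In controls H2-Ab1 stood at 0.661 ± 1.03 and Cd74 at 0.267 ± 0.0873.

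The balance between the 2 heavy chain genes leaned toward H2-D1 in each knockout relative to its litter mate. The H2-K1 to H2-D1 ratio per kilobase was 4.14, 2.38 and 1.45 across the controls and 1.98, 1.88 and 0.54 across the knockouts. It was lower in the knockout in 3 of 3 litters, but the genotypes overlapped (means 2.66 ± 1.37 and 1.47 ± 0.804, SD over n = 3 per genotype; two-sided exact permutation test, p = 0.4). The summed level of both was 53.7 ± 22.5 CPM per kilobase in controls and 52.8 ± 16.2 in knockouts (exact permutation p = 0.9), and B2m exceeded it 2.92 to 5.92 times in controls and 5.11 to 14.1 times in knockouts. In litter 2 that excess was smaller in the knockout (5.11 against 5.92), so it was not larger in every litter (exact permutation p = 0.2).

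Class II transcripts were at or near 0 in all samples, and what there was lay mostly in controls. H2-Aa (chromosome 17, 34282744 to 34287823, minus strand) had 0 counts in each sample, which allows a level of up to 0.068 to 0.104 CPM per library (the level of 3 counts). H2-Eb1 (chromosome 17, 34305867 to 34316674, plus strand) had 1 count, in control 2. H2-Ab1 (chromosome 17, 34257689 to 34269419, plus strand) had 65, 0 and 7 counts across the controls and none in any knockout, so nearly all of its counts came from control 1. Ciita, whose product is the master regulator of class II genes (chromosome 16, 10480059 to 10528418), had 2 counts in control 2, 6 in knockout 1 and none elsewhere. Its annotated exons share 329 bases with Dexi on the other strand. At these counts a difference in H2-Aa, H2-Eb1 or Ciita was not detectable.

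Cd74 (chromosome 18, 60803848 to 60812652, plus strand) was the 1 class II member with counts in every control. It had 15, 11 and 14 counts across the controls and 0, 0 and 1 across the knockouts. The groups did not overlap, as in 7.74% of all tested genes with every knockout below every control. Cd74 passed the filter on low counts through its controls alone, so its place among the tested genes already required them to be the higher group. Summed over samples, 40 control counts stood against 1 knockout count, a ratio of 40.2 after scaling (95% exact interval 6.82 to 1628, for counting error only). In edgeR the fitted log2 fold change came to -4.91 (SE 1.52; adjusted p = 0.686). The level in the controls was 0.294 to 0.518 CPM. No molecular tags are described, so a few counts may be copies of 1 molecule.

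The transcripts that belong to class II bearing cells were examined beside these values. Of 10 B cell markers, Ms4a1 and Pax5 had 0 counts in all 6 samples, while Cd79b had 2 to 171 and Blk 0 to 329. Of 12 dendritic cell markers, Xcr1 had 0 counts in all samples, while Clec9a had 384 in control 2, 503 in knockout 1 and 0 to 47 in the others. The summed B cell markers were at 2.38 to 12.7 CPM in controls and 4.74 to 7.10 CPM in knockouts. Control 1 had the lowest of these sums, and only 2 of the 10 B cell markers had enough counts to be tested. Dendritic cell markers summed to 43.7 to 55.9 CPM in controls and 59.7 to 102 CPM in knockouts. The largest part of the level was Zbtb46 (34.6 to 37.4 CPM in controls and 36.3 to 70.3 CPM in knockouts). Of the 5 tested dendritic cell markers 3 had a positive log2 fold change, while Flt3 and Cd209a had a negative one. Cd209a had 29, 11 and 6 counts across the controls and 12, 0 and 0 across the knockouts. Batf3 and Siglech had counts in controls alone, and Itgax, Clec10a and Cd83 in knockouts alone. Cd86, a costimulatory molecule of antigen presenting cells, was at 1.796, 3.72 and 3.22 CPM across the controls and 21.3, 16.3 and 27.3 CPM across the knockouts, without overlap (log2 fold change 2.89, SE 0.554; edgeR adjusted p = 0.571, DESeq2 adjusted p = 0.000111). Markers of monocytes and granulocytes were at 113 to 203 CPM in controls and 272 to 1127 CPM in knockouts. A positive log2 fold change was found in 10 of 10 of their tested genes, beside 50.8% of all tested genes. Macrophage markers were at 380 to 599 and 275 to 1225 CPM, with a positive log2 fold change in 11 of 13 tested genes. At an unadjusted edgeR p under 0.05, 4 of those 13 were higher and none lower, beside 4.26% and 2.24% of all tested genes. In knockout 2, where the sum was lowest, 6 of 14 macrophage markers were above every control, Csf1r (92.4 CPM) and C1qb (30.9 CPM) among them. In that sample 4 were below every control, Mrc1 (26.4 CPM against 179.5 to 359 CPM in controls) among them. Mrc1 alone averaged 245 CPM in controls, where the whole list averaged 457 CPM, so the sum mostly follows this gene. All 8 endothelial markers were also below every control in knockout 2, and which cells carried Mrc1 was not tested. DESeq2 called Csf1r (adjusted p = 0.00759), C1qb (0.00214) and the monocyte and granulocyte marker Lyz2 (0.00772), all higher in the knockout. These markers were named after their values were seen. An exact permutation test of the summed lists cannot go below p = 0.1 with 3 samples per genotype, so it could call none of the 9. The part of these cells in the B2m, Tapbp, H2-Ab1 and Cd74 values was not tested.

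**Figure D3:**
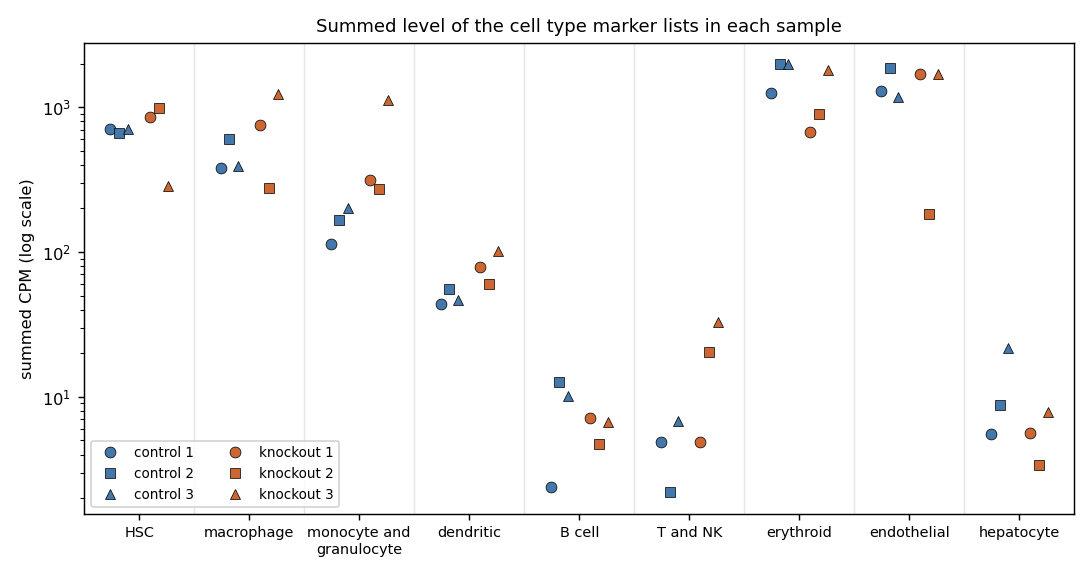
Summed CPM (log scale) of 9 lists of cell type markers in each sample, with controls in blue, knockouts in orange and the litter given by the symbol. Monocyte and granulocyte markers reach 1127 CPM in knockout 3, HSC markers are at 287 CPM there, and endothelial markers are at 184 CPM in knockout 2.

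The members and the other genes of the pathway were grouped by role. Of 76 listed genes, 74 were in the count tables and 56 could be tested. None passed the adjusted threshold. At an unadjusted p under 0.05, 7, B2m and Tapbp among them, were higher (beside 4.26% of all genes) and Cd74 was lower, a direction that the filter on low counts had already set for it. The 8 genes in either direction were 4 without control 1, 5 without control 2, 5 without control 3, 5 with the litter block, and 11 without knockout 1 or without knockout 2. Positive log2 fold changes made up 50.8% of all tested genes and 37 of these 56. The median log2 fold change was 0.26, beside 0.01 over all tested genes.

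Among class I chains, 5 of 10 tested genes had a positive and 5 a negative log2 fold change, with a median of 0.06. H2-Q1, H2-Q2, H2-Q7 and H2-Q10 were at 0 counts in each sample. H2-T22, a nonclassical heavy chain gene, was at 1.28, 3.50 and 1.23 CPM across the controls and 2.79, 5.68 and 17.6 CPM across the knockouts (log2 fold change 2.12, SE 0.981; edgeR adjusted p = 0.775). It was higher in the knockout in 3 of 3 litters, but the rule that named it required 1 sign in 3 litters. Knockout 1 lay inside the control range, and without knockout 3 the log2 fold change was 1.09.

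Peptide generation and loading had 12 of 18 genes positive, with a median log2 fold change of 0.35, and 5 of them had every knockout above every control (beside 6.39% of all tested genes). Tap1 encodes a subunit of the peptide transporter that tapasin holds near class I. It was at 3.18, 5.86 and 4.79 CPM across the controls and 9.26, 7.08 and 33.2 CPM across the knockouts. The groups did not overlap (log2 fold change 1.84, SE 0.743; edgeR adjusted p = 0.753), and the value was 0.84 without knockout 3. Tap2, the other subunit, was at 1.16 to 5.43 CPM in controls and 1.48 to 3.74 CPM in knockouts and overlapped. Npepps, a cytosolic aminopeptidase, was at 26.7 to 33.8 CPM in controls and 36.9 to 65.7 CPM in knockouts (log2 fold change 0.76, SE 0.321). Canx encodes calnexin, the chaperone of new heavy chains. It was lower in each knockout, at 317.5, 344 and 245 CPM, than in any control, at 406, 426 and 369 CPM (log2 fold change -0.41, SE 0.203; edgeR adjusted p = 0.795). The value was -0.26 without knockout 3 and -0.20 with scaling by library size only.

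In class II loading, where 8 of 15 genes could be tested, none passed the threshold. The 5 positive log2 fold changes belonged to the proteases Ctsb, Ctss, Ctsl and Lgmn and to March1, a ubiquitin ligase that acts on class II, and the 3 negative ones to Cd74, H2-DMa and H2-Ob. Ctsb, the lysosomal protease cathepsin B, was at 99.97, 171 and 207 CPM across the controls and 299, 258 and 546 CPM across the knockouts, without overlap (log2 fold change 1.21, SE 0.370; edgeR adjusted p = 0.672). It also belongs to the lysosomes of macrophages in general. H2-DMa encodes a chain of the peptide exchange factor and was picked out after its values were seen. It had 326, 18 and 54 counts across the controls and 2, 0 and 34 across the knockouts. Control 1 held most of these, as it did for H2-Ab1, and knockout 3 lay inside the control range (log2 fold change -3.66, SE 2.03; edgeR adjusted p = 0.802).

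Among regulators 15 of 20 tested genes were positive, with a median log2 fold change of 0.30. Nfkb1, a subunit of NF-kB, was at 19.4, 28.8 and 41.9 CPM across the controls and 53.4, 63.6 and 98.7 CPM across the knockouts, without overlap (log2 fold change 1.26, SE 0.381; edgeR adjusted p = 0.672). Ifngr2, a chain of the interferon gamma receptor, was at 11.7 to 17.5 CPM in controls and 18.7 to 59.7 CPM in knockouts (log2 fold change 1.22, SE 0.502), and its log2 fold change was 0.60 without knockout 3. Ifngr1, its partner chain, had the opposite sign (log2 fold change -0.44, SE 0.314; -0.25 with scaling by library size only) and overlapped. Nfyb, a subunit of NF-Y that binds the CCAAT element, was at 28.8 to 44.8 CPM in controls and 13.3 to 25.9 CPM in knockouts (log2 fold change -0.75, SE 0.392). The RFX genes Rfx5, Rfxap and Rfxank, whose products bind the X box, each overlapped between genotypes.

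**Figure D4:**
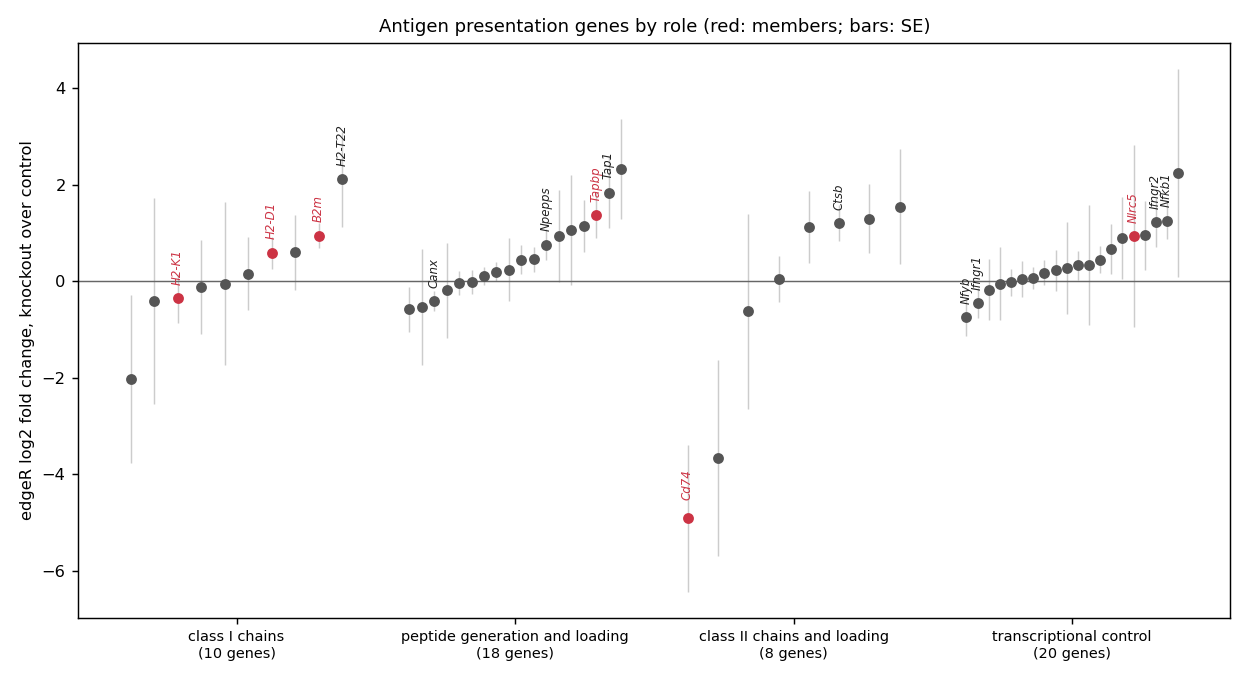
Log2 fold changes (edgeR) with SE bars for the 56 tested antigen presentation genes by role, with members in red and named genes labelled. B2m and Tapbp lie above 0, H2-K1 below 0 with an SE bar that reaches it, and Cd74 at -4.91.

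The genes whose log2 CPM followed B2m most closely over the 6 samples, among 9627 other genes whose average reached 5 CPM in the controls or the knockouts, were Phf6 (Pearson r = 0.994), Ccdc94 (0.991), Scamp3 (0.985), Mrpl24 (0.983) and Edem1 (0.982). All 5 had every knockout above every control, as 6.39% of all tested genes had, and their highest value in knockout 3. B2m has both traits, so picking genes for likeness to it largely set them in advance. The 5 correlations are the highest of 9627 values from samples that share their library scaling, and a description only. For Edem1, an endoplasmic reticulum quality control gene, the level was 16.8 to 30.4 CPM in controls and 38.3 to 100.1 CPM in knockouts. The other members were farther from B2m, with r = 0.759 for H2-D1, 0.564 for Tapbp and -0.465 for H2-K1. H2-Aa and Cd74 could not be given such neighbours, the first being at 0 throughout and the second under 5 CPM.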

How the data were processed

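Whole-number counts per gene symbol were deposited by the authors, 1 table per sample, not normalized; their 5 closing tallies of reads given to no gene (41.0% to 51.0% of all reads) have the names htseq-count uses. Per the submitters' processing notes, CASAVA 1.8.4, TopHat2, Picard 1.126, HTSeq 0.6.0, DESeq 3.0, bedtools 2.17.0 and mm10 were used, with no roles stated. Annotation, strand setting, read length and mouse strain are not given in the sources used here. H2 alleles differ between strains, and the effect of that on alignment was not tested. Per the labels' protocols, RNA was poly(A)-selected in 2 rounds.

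Genes were kept by filterByExpr (by genotype), scaled by TMM and tested with edgeR 4.0.16 (quasi-likelihood, no litter term; R 4.3.3, DESeq2 1.42.0 and limma 3.58.1 as alternatives), with Benjamini-Hochberg adjustment. SE was taken as the absolute log2 fold change divided by the root of the F statistic. Litter differences use log2 CPM with the level of 2 counts added. The procedure was tested on data simulated at a spread well below that of these data and at a spread close to it. Recovery was required only at the lower spread, and the result at the other is not given here. The common biological coefficient of variation, the spread between replicates beyond counting error, was 0.817 here. Log2 CPM correlated by 0.720 to 0.773 between knockouts and by 0.856 to 0.880 between controls. The absence of calls therefore does not show that no gene changed. The members and lists were chosen with earlier results of these data known. Every member is named, and up to 4 genes per role, by smallest p among those with at least 5 CPM in either genotype and 1 sign in 3 litters, and the 5 genes most like B2m. The labels pair samples by litter. Deviations of litter mates from the genotype means correlated by -0.0224, -0.0752 and 0.00336 across genes. Coordinates, exons and transcripts are from GENCODE M21 (GRCm38, the mm10 build), with symbols matched for all 10 members.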

Additional observations from a re-analysis of the deposited data

How the results depend on the processing

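Under 15 alternatives, all planned, no member and no listed pathway gene passed the threshold. The count of all genes past it was 138 with DESeq2, 1 without a filter on low counts and 1 with at least 10 counts in every sample, and 0 in the other alternatives, including the replicate block by litter (619 at an unadjusted p under 0.05) and each fit without 1 sample (0 to 0; 471 to 1666). The cause was not tested. With the litter block, the log2 fold change was 0.91 for B2m, 1.43 for Tapbp and -5.19 for Cd74, and the block changed no call at the adjusted threshold.

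B2m stayed positive throughout (0.66 to 1.14; adjusted p 0.103 to 1), as did Tapbp (1.08 to 1.59), H2-D1 (0.45 to 0.80) and the class I median (0.45 to 1.14). Cd74 stayed negative (-6.82 to -4.25) in the 14 alternatives that tested it, but the filter on low counts had set its sign wherever it was used. Without that filter the unadjusted edgeR p of Cd74 was 0.0659, and its unadjusted DESeq2 p was 0.137. With at least 10 counts in every sample, Cd74 and Nlrc5 were not tested. H2-K1 turned to 0.21 without control 1 (-0.79 to 0.21 without 1 sample) and Nlrc5 to -0.077 with the litter block; without 1 sample Nlrc5 ranged from 0.13 without knockout 2 to 2.80 without control 1. Scaling by library size alone moved the median of all genes to 0.23, upper-quartile scaling to -0.10 and limma-voom to -0.14. The class II members are limited by depth: 3 counts are 0.068 to 0.104 CPM.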

Other observations

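Class I genes differed among the knockouts. Knockout 2 held the highest level of the 6 samples in Erap1, the aminopeptidase that trims peptides for class I (97.9 CPM, against 16.4 to 39.5 CPM in the others), in the nonclassical heavy chain gene H2-T24 (28.4 against 2.57 to 14.0 CPM), in H2-T23 (14.6 against 3.23 to 9.31 CPM) and in Nlrc5 (3.53 against 0 to 2.42 CPM). Knockout 3 held the lowest level in H2-T23 and H2-T24 but the highest in Psme2, a subunit of the proteasome activator PA28 (75.8 against 3.58 to 8.50 CPM), in Tap1 (33.2 against 3.18 to 9.26 CPM) and in Socs1, an inhibitor of cytokine signalling (11.3 against 0 to 2.04 CPM). Irf1, a transcription factor induced by interferon, was lowest there (0.971 against 2.51 to 8.33 CPM). These genes were picked out after their values were seen, no test was run on the difference between single samples, and HSC and granulocyte markers also set knockout 3 apart.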
